A study of Mus musculus with 22 samples.

Results

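The oxycodone effect in ventral striatum was examined in 10 of the 22 libraries of the series, 5 from mice that had self-administered oxycodone and 5 from yoked mice that were infused with saline. Ventral striatum had 12 libraries in all, and oxycodone replicate 6 and saline replicate 6 were left out because their marker genes do not look like ventral striatum. The libraries were thus selected on measured levels of region and cell type markers, which are given as a description, with no test. The animals of both groups were adult male C57BL/6J mice. Each oxycodone infusion held 0.25 mg/kg, sessions lasted 4 h a day, and both groups were infused over 14 days. The other 10 libraries came from dorsal striatum of mice under the same schedules, and they were used to look up the ventral genes in a second region. The labels used here do not say whether a library came from 1 animal or a pool, or whether the regions came from the same mice, so p values measure the spread between these libraries, which may be partly technical.

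The ventral striatum holds the nucleus accumbens, where opioids act on receptors of medium spiny neurons and on their inputs, and where drug reward is linked to dopamine release. Medium spiny neurons fall into those that carry the D1 dopamine receptor and the peptide gene Pdyn, and those that carry the D2 receptor and the peptide gene Penk. Secretory cells answer a load of unfolded protein in the endoplasmic reticulum (ER) through the unfolded protein response (UPR), in which ATF6, spliced XBP1 and the PERK arm raise chaperones of that compartment. Cytosolic heat shock proteins are raised by a separate factor, HSF1.

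The 10 libraries held 8408829 to 10007992 counts each, mitochondrial genes took 5.98% to 7.12% of them, and a gene with no count in a library is limited to between 0.3 and 0.357 CPM (counts scaled to library size), the level that 3 counts make up. A list level is the mean log2 CPM, in 1 library, of all genes of the list with any count in the 22 libraries. It includes genes that did not pass the filter on low counts. Ventral striatum markers such as Crym, Dlk1 and Wfs1 stood between 5.16 and 5.87 in the 10 libraries, at 3.53 in oxycodone replicate 6 and at 2.58 in saline replicate 6, while the dorsal libraries ran from 2.81 to 4.02. Oxycodone replicate 6 had dorsal striatum markers at 7.66, against 6.18 to 6.61 in the 10 libraries and 7.87 to 8.2 in dorsal ones, and choroid plexus and ependyma markers at 3.72 against 0.679 to 1.55. Saline replicate 6 had D1 neuron markers at 2.62 against 5.22 to 5.58 and glutamatergic neuron markers at 6.27 against 2.85 to 4.29. In all 10 libraries the ventral striatum markers stood above every dorsal library.

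**Figure D1:**
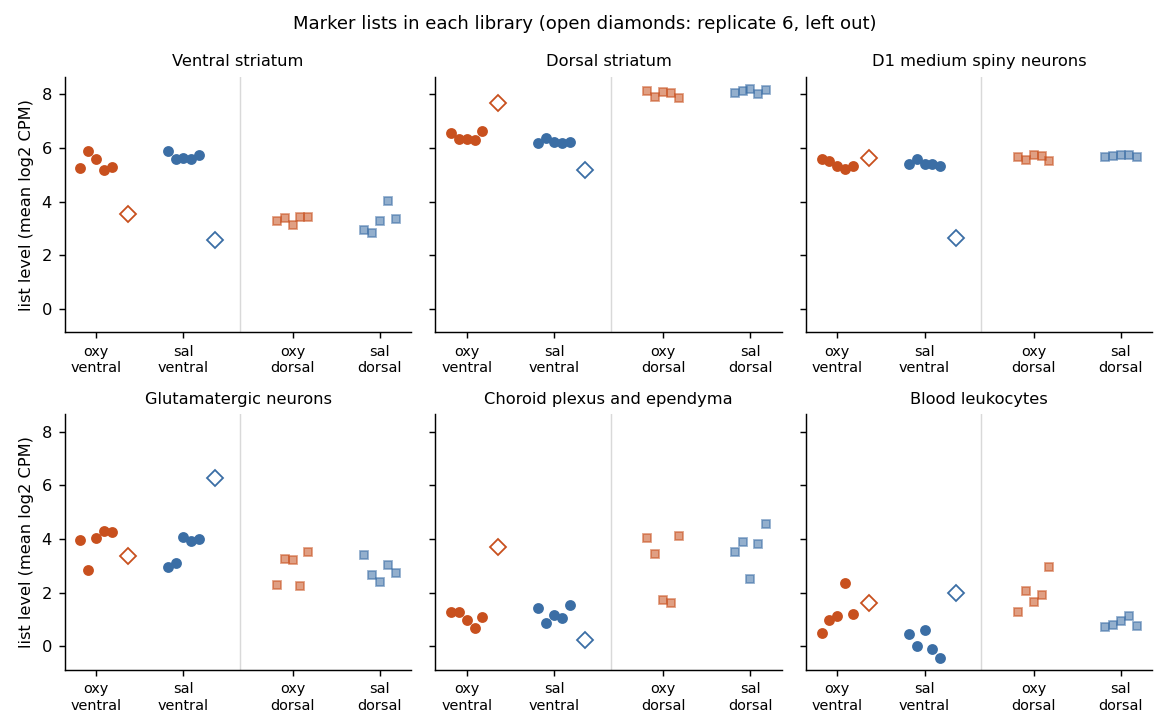
Level of 6 marker lists (mean log2 CPM, vertical axis) in each ventral and dorsal library, oxycodone in orange and saline in blue; circles are the 10 ventral libraries used, open diamonds are replicate 6 of each group and squares are dorsal libraries. In the ventral striatum panel the open diamonds lie at 3.53 and 2.58, below the 10 circles, which start at 5.16.

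Some of the 10 libraries also stood apart. Oxycodone replicate 1 had a septal, preoptic and pallidal marker level of 1.86 against 1.01 to 1.35 in the other oxycodone libraries and 1.38 to 1.86 in saline ones, and it had 30.2 CPM of Ttr, the choroid plexus gene for transthyretin, against 1.47 to 8.26. Oxycodone replicate 4 had the highest level of blood leukocyte markers, 2.37 against 0.506 to 1.19 in the other oxycodone libraries, and of red cell transcripts, 6.33 against 4.8 to 5.72. Saline replicate 1 had the highest levels of meninges and fibroblast markers, 4.66 against 2.14 to 2.81 in the other saline libraries, and of pericyte and smooth muscle markers, 5.37 against 4.13 to 4.43. Glutamatergic markers varied widely in both groups: Slc17a7, the vesicular glutamate transporter of cortical neurons, had 158, 43.1, 304, 384 and 251 CPM in oxycodone replicates 1 to 5 and 37.8, 58.6, 283, 222 and 213 CPM in saline replicates 1 to 5. The 2 groups overlapped over nearly their whole range for Slc17a7. For several lists, though not all, results are given below with and without replicate 1 or replicate 4 of the oxycodone group.

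The comparison asked which transcripts differ in ventral striatum after oxycodone self-administration. No gene was past an adjusted p of 0.05 in the edgeR quasi-likelihood test of 14102 genes (0% called), where the lowest adjusted p was 0.104 and was shared by 8 genes: Xbp1, Prl, Neb, Spi1, Samsn1, Wdr6, Ngb and Ece2. At an unadjusted p under 0.05 there were 1464 genes, 10.4% of those tested and against 705.1 expected, of which 732 had higher and 732 had lower levels in oxycodone libraries (5.19% each). DESeq2 called 109 of 16048 genes (0.679%), 74 higher (0.461%) and 35 lower (0.218%), and limma-voom with quality weights called 68 of 14102 (0.482%), 40 higher (0.284%) and 28 lower (0.199%). Both tools called 51 genes, 33 higher and 18 lower. The groups did not overlap for 318 genes (2.25%), with 135 genes above (0.957%) and 183 below (1.3%) every saline library, and 41 of the 51 genes were among them. Changes were small for most genes: the median log2 change, oxycodone minus saline, was -0.005, it was above 0 for 48.3% of genes, and the 5th and 95th percentiles were -0.30 and 0.35.

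**Figure D2:**
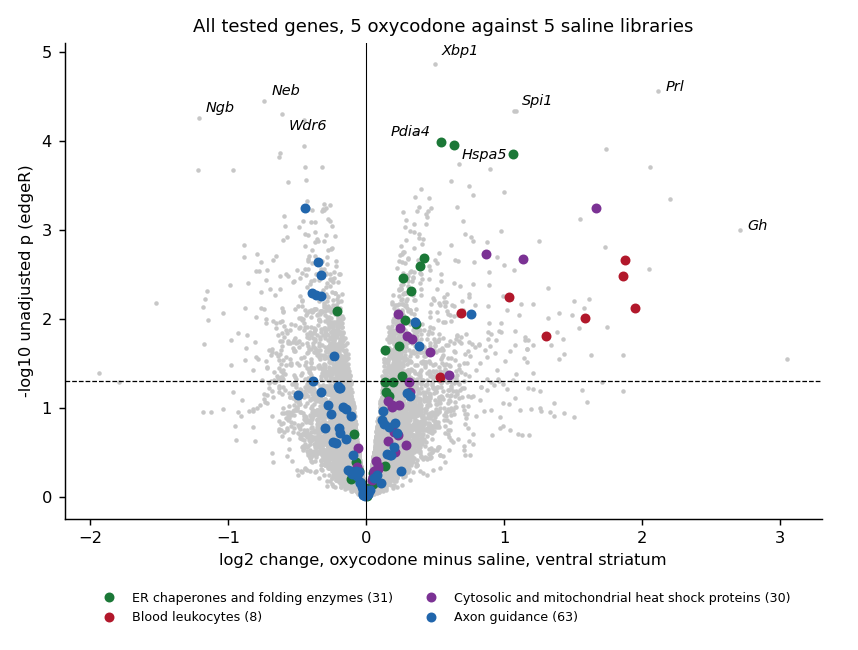
Points are the 14102 genes tested, each with its log2 change (oxycodone minus saline, horizontal axis) against -log10 of its unadjusted edgeR p (vertical axis); the dashed line marks 0.05 and 4 gene lists are coloured, with the number tested in parentheses. Of the 31 ER chaperones, 12 lie to the right of 0 and above the dashed line. Only 8 of the 15 blood leukocyte markers passed the filter, so their position is a description.

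By count at an unadjusted p under 0.05, ER chaperones and folding enzymes had more members with higher levels than any other of the 39 lists. The lists differ in size, and by share of tested members the dorsal striatum, blood leukocyte and pituitary lists ranked above it. Lists and members were chosen with earlier results of these data known, so the rank is a description. The log2 change was above 0 for 24 of the 31 tested, and its median was 0.13. Of the 31, 12 had higher levels at an unadjusted p under 0.05 and 1 had a lower level, against 5.19% of all genes each way. None passed the edgeR adjusted threshold, while DESeq2 and limma-voom each called 3 higher: Hspa5, Pdia4 and Sdf2l1. In 4 members, Hspa5, Pdia4, Dnajc3 and Uggt1, every oxycodone library lay above every saline library, against 0.957% of all genes.

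Hspa5 encodes BiP, the main Hsp70 chaperone of the ER (GRCm38 chromosome 2, 34771970 to 34777547). Its level was 585, 362, 461, 390 and 472 CPM in oxycodone replicates 1 to 5 and 296, 303, 255, 328 and 278 CPM in saline replicates 1 to 5. The groups were 454 ± 86.7 and 292 ± 27.3 CPM (SD, n = 5 each), and the lowest oxycodone library was above the highest saline one. The log2 change was 0.64 (SE 0.12). The edgeR adjusted p was 0.132, and the adjusted p was 0.000318 by DESeq2 and 0.0203 by limma-voom. Leaving out any 1 library kept the log2 change between 0.54 and 0.72.

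Pdia4, a disulfide isomerase that works with BiP, had 170, 115, 135, 116 and 148 CPM in the oxycodone libraries and 93.1, 102, 89.7, 95.8 and 88.6 CPM in the saline ones, again without overlap. Its log2 change was 0.55 (SE 0.10), with adjusted p values of 0.132 by edgeR and 0.000805 by DESeq2. Sdf2l1, a component of BiP complexes, had 10.6, 5.02, 8.57, 7.91 and 11.6 CPM after oxycodone and 4.05, 5.12, 3.71, 4.03 and 4.1 CPM after saline. Oxycodone replicate 2 lay within the saline range for Sdf2l1 and the other 4 lay above it, with a log2 change of 1.06 and SE 0.20.

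The other 9 chaperones with higher levels at an unadjusted p under 0.05 had smaller differences, and 18 of the 31 did not pass it either way. Pdia6, a disulfide isomerase, had a log2 change of 0.42, and Manf, a protein that binds BiP and is secreted under ER stress, had 0.39, but exons of neighbouring genes overlap Manf and Pdia6 and the strand setting of the counting is not stated. Dnajc3 and Dnajb11, co-chaperones of BiP, had 0.27 and 0.32, and Creld2 and Creld1 had 0.28 and 0.24. Uggt1, the enzyme that marks misfolded glycoproteins, had 0.13, with 162 ± 4.57 against 147 ± 4.96 CPM (SD, n = 5 each).

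Calr, the lectin chaperone calreticulin, had 842, 529, 611, 547 and 628 CPM in oxycodone replicates 1 to 5 and 431, 496, 465, 584 and 484 CPM in saline replicates 1 to 5. Its log2 change was 0.36 with SE 0.12, and 2 oxycodone libraries lay within the saline range. Hsp90b1, the ER member of the Hsp90 family, had 843 CPM in oxycodone replicate 1 and 521 to 591 CPM in the other 4, against 482 to 568 CPM in saline. Its log2 change was 0.26, and without single libraries it ran from 0.13 to 0.32. Dnajc10, a reductase of ER disulfide bonds, was the 1 member with a lower level at an unadjusted p under 0.05, 91.1 ± 7.52 against 106 ± 6.08 CPM (SD, n = 5 each), a log2 change of -0.21.

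Oxycodone replicate 1 had the highest level of the chaperone list, 5.93 against 5.59 to 5.70 in the other oxycodone libraries and 5.51 to 5.59 in saline. Without it, 11 members had higher levels at an unadjusted p under 0.05, against 8.74% of all genes, with a median of 0.12. Over the 10 fits that each left out 1 library this count ran from 10 to 15. Among the 8 ventral libraries sequenced in lane 1, 10 members did and 1 was lower, against 3.17% and 2.99% of all genes.

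The promoters of ER chaperones are shown because several of these genes carry the ER stress element, the sequence that ATF6 binds together with NF-Y: CCAAT, 9 bases of any kind, then CCACG, on either strand. RefSeq windows (GRCm38.p6) from 250 bases before to 50 bases after the start were searched. The element was found in 8 of the 29 ER chaperones with a window (27.6%), against 37 of 27025 genes with a RefSeq window (0.137%) and 17 of 11084 tested genes (0.153%). The 8 were Hspa5, Hsp90b1, Calr, Creld2, Pdia6, Dnajc3, Canx and Ero1b. By a split made after the values were seen, 6 of the 11 chaperones with a window and a higher level at an unadjusted p under 0.05 held it (54.5%), and 2 of the other 18 (11.1%). The stretches of those 6 are given 5′ to 3′ on the gene's strand, with the element in capitals, which reads CGTGG, 9 bases, ATTGG where it lies on the opposite strand.
Hspa5 at chr2:34772020-34772049 (+): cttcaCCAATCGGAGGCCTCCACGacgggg
Calr at chr8:84847035-84847133 (-): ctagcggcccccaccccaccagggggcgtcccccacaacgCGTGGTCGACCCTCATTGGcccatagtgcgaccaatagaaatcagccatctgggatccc
Creld2 at chr15:88819480-88819578 (+): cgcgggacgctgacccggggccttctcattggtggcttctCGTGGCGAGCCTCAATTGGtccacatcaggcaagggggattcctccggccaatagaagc
Pdia6 at chr12:17266451-17266544 (+): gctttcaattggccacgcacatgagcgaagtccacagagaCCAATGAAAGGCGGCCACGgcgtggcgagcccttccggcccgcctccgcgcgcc
Dnajc3 at chr14:118937787-118937885 (+): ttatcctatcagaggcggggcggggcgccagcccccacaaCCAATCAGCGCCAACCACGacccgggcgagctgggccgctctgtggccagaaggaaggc
Hsp90b1 at chr10:86705510-86705694 (-): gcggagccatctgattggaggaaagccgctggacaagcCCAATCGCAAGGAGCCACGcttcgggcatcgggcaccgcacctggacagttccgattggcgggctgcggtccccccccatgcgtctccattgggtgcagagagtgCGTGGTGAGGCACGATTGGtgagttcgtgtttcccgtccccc
The Hsp90b1 stretch holds 2 elements, 1 in each orientation. The Hspa5 stretch is the shortest because its element, which lies before the RefSeq start, falls within a longer first exon of GENCODE M21. These letters were not found in the windows of Pdia4, Sdf2l1 and Xbp1, nor in any of 24 heat shock genes, and a match is a description of the sequence only. The core of the unfolded protein response element, TGACGTG on either strand, was found for Hspa5, Txndc5 and Txndc11 among the chaperones and for 2.22% of all genes.

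The sensors and transcription factors of the UPR had log2 changes from -0.74 for Bbc3 to 0.49 for Xbp1. Of 21 tested, Xbp1 and Atf6 had higher levels at an unadjusted p under 0.05 and none had a lower one. The share of all genes was 5.19% each way, and the median log2 change of the list was 0.01. Xbp1, which had the lowest p of all genes (chromosome 11, 5520659 to 5525893), stood at 50, 42.5, 47, 44.4 and 48.5 CPM in oxycodone replicates 1 to 5 and at 34.3, 36.2, 29, 33 and 32.3 CPM in saline replicates 1 to 5. The groups were 46.5 ± 3.03 and 33 ± 2.68 CPM (SD, n = 5 each) and did not overlap. The log2 change of Xbp1 was 0.49 with SE 0.08, the edgeR adjusted p was 0.104 and the DESeq2 adjusted p was 8.28e-05. The counts do not separate its spliced from its unspliced transcript.

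Atf6, the sensor that is cut in the Golgi to become a transcription factor, had 124 ± 6.73 CPM after oxycodone and 102 ± 8.23 CPM after saline (SD, n = 5 each), without overlap. Its log2 change was 0.28 with SE 0.07, and its adjusted p was 0.196 by edgeR, 0.0275 by DESeq2 and 0.0396 by limma-voom. Ern1 and Eif2ak3, which encode the sensors IRE1 and PERK, had log2 changes of 0.01 and 0.02, with SE 0.12 and 0.08, and their signs turned under some of the settings tried. Ddit3, a target of the PERK arm that encodes CHOP, had 0.08 with SE 0.08. In the list for ER-associated degradation and translocation, 3 of 30 members had higher and 1 a lower level at an unadjusted p under 0.05. In all 13.3% of this list passed, near the 10.4% of all genes, and its median was 0.00. Herpud1, which scaffolds the degradation complex, had 0.19 and Derl3, one of its membrane components, had 0.69, while the lectin gene Erlec1 had -0.24. The ER to Golgi transport list had 1 of 30 members higher and 0 lower, against 5.19% of all genes each way. Its median was -0.02.

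The next 3 genes, of collagen folding and ER calcium release, were chosen after their values were seen. P4ha1, a subunit of prolyl hydroxylase, had 92.6 ± 12.8 against 70.5 ± 2.09 CPM (SD, n = 5 each), and Serpinh1, the collagen chaperone Hsp47, had 23.6 ± 4.88 against 14.9 ± 3.84 CPM. Itpr1, a calcium channel of the ER, had 1868, 1826, 2075, 2268 and 2307 CPM in the oxycodone libraries and 1729, 1615, 1664, 1539 and 1561 CPM in the saline ones. DESeq2 and limma-voom called all 3, and the groups did not overlap for P4ha1 and Itpr1.

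Cytosolic and mitochondrial heat shock proteins had a median log2 change of 0.20, with 26 of 30 members positive, 9 higher and 0 lower at an unadjusted p under 0.05, against 5.19% of all genes each way. DESeq2 called 2 of them higher, Hspa1b and Hspb1, and edgeR and limma-voom called 0. Hspa1b and Hspa1a are the inducible Hsp70 genes. Hspa1b had 5.07, 2.51, 5.64, 5.28 and 9.28 CPM after oxycodone and 1.71, 0.64, 2.62, 2.4 and 1.4 CPM after saline, a log2 change of 1.67 (SE 0.37) with adjusted p values of 0.177 by edgeR, 0.00586 by DESeq2 and 0.0669 by limma-voom. Oxycodone replicate 2 overlapped the saline libraries. Hspa1a, a near-identical copy with an overlapping gene on the other strand, had a log2 change of 1.13, and how reads were shared between the copies is uncertain.

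Hspb1, a small heat shock protein, had 9.61 ± 2.19 against 5.25 ± 1.83 CPM (SD, n = 5 each) with adjusted p values of 0.0448 by DESeq2 and 0.0565 by limma-voom. Bag3 and Dnajb1, co-chaperones of Hsp70, had log2 changes of 0.46 and 0.30. The level of this list was 6.69 in oxycodone replicate 1, 6.17 to 6.38 in the other oxycodone libraries and 6.07 to 6.18 in saline. Without replicate 1 the median of all tested members was 0.07, and 9 members had higher levels at an unadjusted p under 0.05, against 8.74% of all genes.

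**Figure D3:**
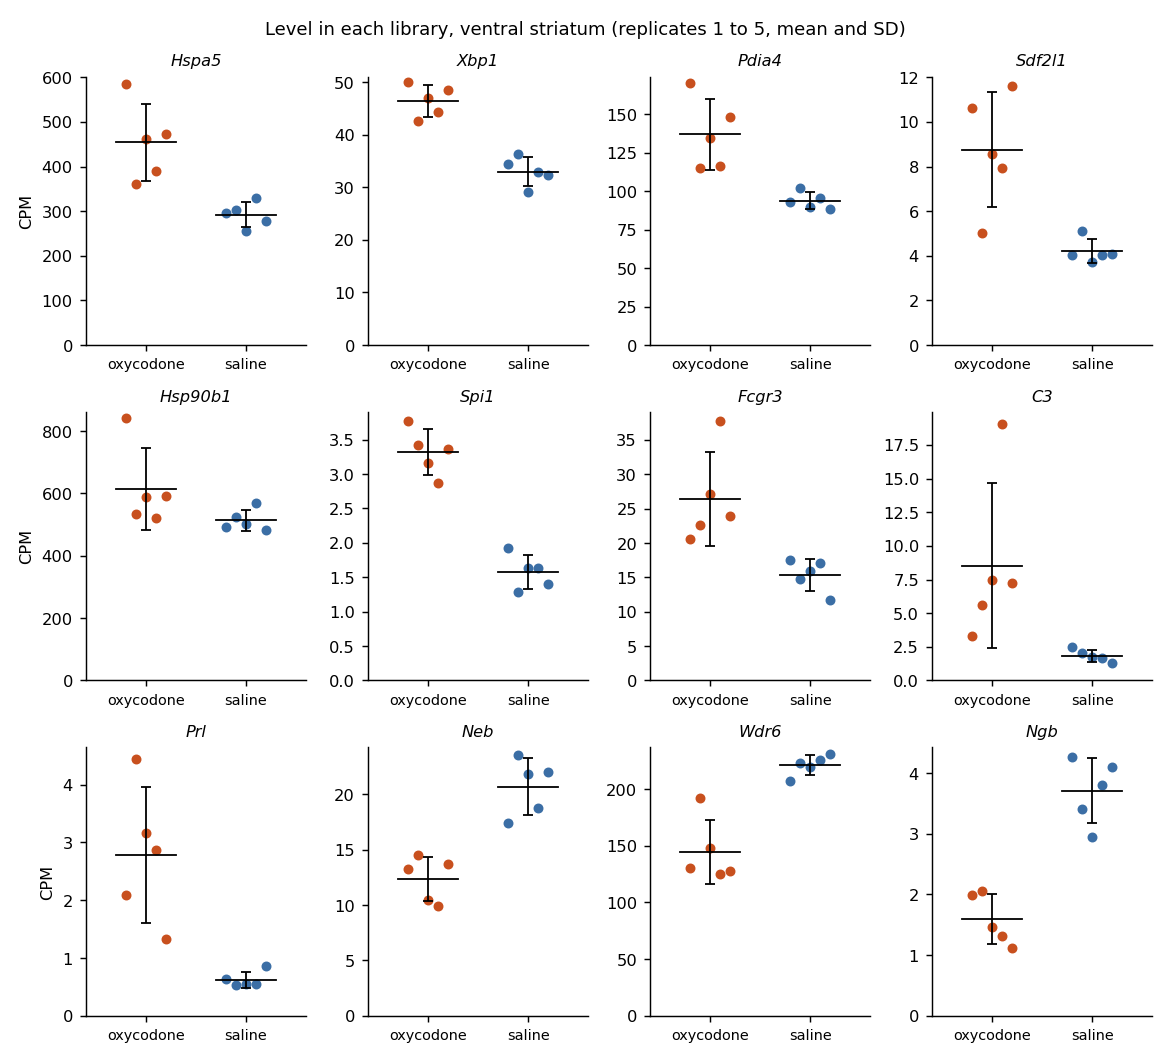
Level in CPM (vertical axis, from 0) of 12 genes in each of the 5 oxycodone (orange) and 5 saline (blue) libraries; the line is the group mean and the bar is the SD. The groups do not overlap for Hspa5, Xbp1, Pdia4, Spi1, Fcgr3, C3, Prl, Neb, Wdr6 and Ngb, and they overlap for Sdf2l1 and Hsp90b1.

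Several genes of white blood cells and of phagocytes had higher levels after oxycodone at an unadjusted p under 0.05. Only 8 of the 15 blood leukocyte markers passed the filter on low counts. A tested member had to reach a minimum count in at least as many libraries as a group holds, which members that are low in saline can meet through the oxycodone group alone. The direction of these 8 is therefore a description, and no count of them at an unadjusted p under 0.05 is given. DESeq2 called Cybb, Ptprc, S100a8 and S100a9 higher, while edgeR and limma-voom called 0 of the 8. In bulk tissue a larger number of cells of a type and more RNA per cell cannot be told apart.

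Ptprc, the gene of CD45, a phosphatase on the surface of all leukocytes, had 12.3, 15.8, 17.4, 38.4 and 17.8 CPM in oxycodone replicates 1 to 5 and 12.3, 8.64, 12.3, 7.4 and 8.73 CPM in saline replicates 1 to 5. S100a8, a calcium-binding protein of neutrophils, had 1.79, 2.96, 2.6, 8.63 and 2.24 CPM against 0.746, 1.6, 1.31, 0.544 and 0.647 CPM. Replicate 4 was the highest oxycodone library for both genes, and replicate 1 touched the saline range for Ptprc. Cybb, the catalytic chain of the phagocyte oxidase, had a log2 change of 1.95 and Itgal, a leukocyte integrin chain, had 1.58. The median log2 change of the tested members was 1.44, and it was 0.99 without oxycodone replicate 4.

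Red cell transcripts, which track blood left in the tissue, had a median log2 change of 0.62 over 8 tested members, with 1 higher at an unadjusted p under 0.05 and a list level of 4.8 to 6.33 in oxycodone and 4.72 to 5.33 in saline libraries. The part of blood content in the leukocyte result was not tested. Endothelium markers had a median of 0.25, with 2 of 14 higher at an unadjusted p under 0.05. Of all genes 5.19% were higher, the share beside the red cell and endothelium counts.

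Spi1 and Fcgr3 differed with less spread between libraries. Spi1, which encodes PU.1, the transcription factor of the myeloid lineage, had 3.78, 3.42, 3.16, 2.88 and 3.37 CPM after oxycodone and 1.92, 1.28, 1.64, 1.63 and 1.4 CPM after saline, with no overlap, and its log2 change was 1.07 (SE 0.18). The adjusted p was 0.104 by edgeR, 0.0165 by DESeq2 and 0.0203 by limma-voom. Samsn1, an adaptor of immune cells, had 4.2 ± 0.831 against 1.96 ± 0.142 CPM (SD, n = 5 each), and Dok3, another adaptor of immune cell signalling, had 13.3 ± 2.14 against 8.33 ± 1.11 CPM. DESeq2 and limma-voom called both, and neither gene's groups overlapped.

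Of 18 microglia markers, 5 had higher and 0 lower levels at an unadjusted p under 0.05, against 5.19% of all genes each way, with a median log2 change of 0.17. Without oxycodone replicate 4, 3 had higher levels, against 4.89% of all genes. Fcgr3, an Fc receptor of microglia and other phagocytes, had 20.6, 22.6, 27.2, 37.8 and 23.9 CPM against 17.5, 14.7, 15.9, 17.1 and 11.6 CPM, a log2 change of 0.78 with a DESeq2 adjusted p of 0.00584. The log2 change was 0.27 for Csf1r, the receptor for colony-stimulating factor 1, and 0.34 for Tyrobp, a signalling adaptor of microglia.

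C3, the central component of complement, had 3.28, 5.59, 7.45, 19.1 and 7.24 CPM in oxycodone replicates 1 to 5 and 2.45, 2.03, 1.75, 1.63 and 1.29 CPM in saline replicates 1 to 5. The groups did not overlap, and the log2 change of C3 was 2.20 with SE 0.45, or 1.68 to 2.42 when single libraries were left out. Lcn2, the iron-binding protein lipocalin 2, had 22.9, 24.2, 37.6, 58.4 and 32.8 CPM against 10.9, 8.74, 6, 12.8 and 3.66 CPM, a log2 change of 2.05. Cd14, a co-receptor for bacterial lipopolysaccharide, had a log2 change of 1.55 and Tlr7, a receptor for RNA, had 0.88. DESeq2 and limma-voom called all 4 of these genes, and the edgeR adjusted p values were 0.177, 0.132, 0.189 and 0.212.

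The wider immune lists had positive medians, with few members past an unadjusted p of 0.05, which 5.19% of all genes passed each way. Complement and antigen presentation had a median log2 change of 0.53, with 25 of 27 tested members positive, 3 higher and 0 lower. Interferon-induced genes had a median of 0.41, with 26 of 29 positive and 2 higher, a share near that of all genes. Irf1, an interferon-induced transcription factor, had 4.97, 8.66, 16.3, 35.9 and 17.3 CPM after oxycodone against 4.05 to 8.4 CPM after saline, so that replicate 1 lay within the saline range. Cytokines and innate receptors had a median of 0.19, with 7 of 31 higher and 0 lower. Only 31 of its 42 members passed the filter, which members low in saline could meet through the oxycodone group alone, so the counts of this list are a description.

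Oxycodone replicate 1 had the lowest level of the interferon list of all 10 libraries, 1.9, and replicate 4 the highest, 3.91. Without replicate 1, the lists for complement, interferon and cytokines had 10, 10 and 12 higher members at an unadjusted p under 0.05, against 8.74% of all genes. Without replicate 4 they had 3, 1 and 4, against 4.89%.

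Prl and Gh, which encode the pituitary hormones prolactin and growth hormone, were detected at low levels in every library. Prl had 2.09, 4.45, 3.16, 2.88 and 1.33 CPM after oxycodone and 0.64, 0.533, 0.545, 0.544 and 0.862 CPM after saline, a log2 change of 2.12 (SE 0.34), where edgeR gave an adjusted p of 0.104. Gh had 8.85, 49.1, 29.1, 23 and 10.1 CPM against 2.56, 1.07, 4.47, 4.36 and 5.82 CPM, a log2 change of 2.71. The groups did not overlap for either gene, and DESeq2 and limma-voom called both. Pomc, also a pituitary gene, had 1.19, 11.7, 6.32, 5.04 and 4.39 CPM against 3.63, 2.24, 2.29, 1.63 and 3.56 CPM, so that its groups overlapped. Oxycodone replicate 2 was the highest library for all 3 genes. Only 4 of the 11 pituitary markers passed the filter on low counts, which members low in saline could meet through the oxycodone group alone, so no count over the list is given.

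The 12 genes of lowest p with lower levels after oxycodone had varied known roles. Neb, the gene of nebulin, a giant protein of muscle thin filaments, had 13.2, 14.5, 10.5, 9.95 and 13.7 CPM in oxycodone replicates 1 to 5 and 17.4, 23.6, 21.8, 18.7 and 22 CPM in saline replicates 1 to 5. Its log2 change was -0.74 (SE 0.12), where edgeR gave an adjusted p of 0.104. Wdr6, a protein with WD repeats, had 130, 192, 148, 126 and 128 CPM against 207, 223, 219, 226 and 231 CPM, with a log2 change of -0.61, and oxycodone replicate 2 lay nearest to the saline libraries. Ngb, the neuronal globin, had 1.99, 2.05, 1.47, 1.32 and 1.12 CPM against 4.27, 3.41, 2.94, 3.81 and 4.1 CPM, with a log2 change of -1.21. The groups did not overlap for any of the 3, and DESeq2 and limma-voom called all 3 genes lower. Exons of other genes overlap Neb and Wdr6 on the other strand.

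Ece2, a metalloprotease that processes neuropeptides and overlaps another gene model on the same strand, had 49.4 ± 5.47 against 67.4 ± 3.91 CPM (SD, n = 5 each). Frem3, an extracellular matrix protein, had 4.14 ± 1.85 against 9.67 ± 0.951 CPM, a log2 change of -1.22. Lama3, a laminin chain, and Hnrnpdl, an RNA-binding protein, had log2 changes of -0.43 and -0.32. In each of these 4 genes every oxycodone library lay below every saline one, and DESeq2 and limma-voom called them lower.

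Among signalling genes of medium spiny neurons, 6 of 26 had higher and 0 lower levels at an unadjusted p under 0.05, against 5.19% of all genes each way, with a median log2 change of 0.16. The count of higher members ran from 4 to 13 when single libraries were left out, with 13 without oxycodone replicate 4. Rgs4, a regulator that shortens G protein signalling, had 286, 184, 216, 199 and 186 CPM after oxycodone and 162, 169, 167, 169 and 150 CPM after saline, without overlap, a log2 change of 0.39 (SE 0.11) and 0.255 as the adjusted p of edgeR. Arpp19, a phosphatase inhibitor regulated by cAMP, had a log2 change of 0.34. Pde10a, the cyclic nucleotide phosphodiesterase of these neurons, had 0.26, and Ppp1r1b, which encodes DARPP-32 and overlaps a gene on the other strand, had 0.32. None of these 4 was called by edgeR, DESeq2 or limma-voom.

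Receptor and peptide genes that also serve as region or cell type markers are given without a test. Drd1, the D1 dopamine receptor, had 159 to 228 CPM in oxycodone and 151 to 197 CPM in saline libraries, and Drd2, the D2 receptor, had 115 to 184 and 113 to 142 CPM. Adora2a, the adenosine receptor of D2 neurons, had 98.2 to 154 and 92.9 to 122 CPM. The groups overlapped for all 3. Penk, which encodes the enkephalins, had 941 to 1256 CPM against 936 to 1368 CPM, and Pdyn, which encodes the dynorphins, had 77.5 to 95.8 CPM against 69.4 to 94.8 CPM. Oprk1, the kappa opioid receptor to which dynorphin binds, had 18.2 to 23.6 CPM against 14.9 to 19.8 CPM.

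Oprm1, the mu opioid receptor at which oxycodone acts, had 35.2, 50.8, 43.6, 33.7 and 41.2 CPM after oxycodone and 51.5, 37.2, 37.7, 45.1 and 44.8 CPM after saline, a log2 change of -0.08 with SE 0.12. The groups overlapped over most of their range, and exons of Ipcef1, on the other strand, overlap those of Oprm1. Oprd1, the delta receptor, had 10.1 ± 1.07 against 7.64 ± 2.09 CPM (SD, n = 5 each), a log2 change of 0.40, and Oprl1, the nociceptin receptor, had 28.4 ± 4.13 against 35 ± 3.57 CPM, a log2 change of -0.30. Pnoc, the nociceptin precursor, had a log2 change of -0.64 at 1.78 and 2.79 CPM. The median over 8 opioid genes was 0.00, with log2 changes from -0.64 to 1.09. Of the 8, 3 had higher and 2 lower levels at an unadjusted p under 0.05 by edgeR, against 5.19% of all genes each way. Higher members ran from 0 to 3 and lower ones from 1 to 2 when single libraries were left out. The list includes region and cell type markers, so these counts are a description. The edgeR adjusted p was 0.353 or more for Oprm1, Oprd1, Oprl1 and Pnoc.

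Immediate early genes, which are switched on by neuronal activity, had a median log2 change of 0.28, with 23 of 26 positive, 8 higher and 0 lower at an unadjusted p under 0.05, against 5.19% of all genes each way. The count of higher members ran from 4 to 12 when single libraries were left out, and with all 12 libraries it was 1, with a median of 0.14. Fos had 19.9, 17.2, 26.4, 16.8 and 19.3 CPM after oxycodone and 9.17, 17.7, 13.7, 17 and 16.7 CPM after saline, so that its groups overlapped. Fosl2, a relative of Fos, had a log2 change of 0.51. Nptx2, a synaptic pentraxin, had 21, 5.81, 15.2, 9.23 and 12.8 CPM against 6.83 to 7.11 CPM, with oxycodone replicate 2 below every saline library. Homer1, a scaffold of glutamate receptors, had 0.30. No immediate early gene was called by edgeR, DESeq2 or limma-voom.

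Genes that respond to glucocorticoids had a median log2 change of 0.30, with 20 of 22 positive, 7 higher and 0 lower at an unadjusted p under 0.05, against 5.19% of all genes each way. Apart from Lcn2, given above, they included Klf9, a transcription factor, with 85.5 ± 10.6 against 67.7 ± 7.58 CPM (SD, n = 5 each), and Tsc22d3, which encodes the protein GILZ, with 59.1 ± 12.2 against 42.1 ± 9.68 CPM. Fkbp5, a co-chaperone of the glucocorticoid receptor, had a log2 change of 0.37. Zbtb16 had 18.7, 35.9, 51, 63.9 and 63.9 CPM after oxycodone and 34.8, 30.5, 30.6, 24.2 and 27.7 CPM after saline, with oxycodone replicate 1 below every saline library and the other 4 above them. Without replicate 1 the list had 12 higher members, against 8.74% of all genes, and a median of 0.40. Without replicate 4 it had 5, against 4.89%, and a median of 0.22.

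**Figure D4:**
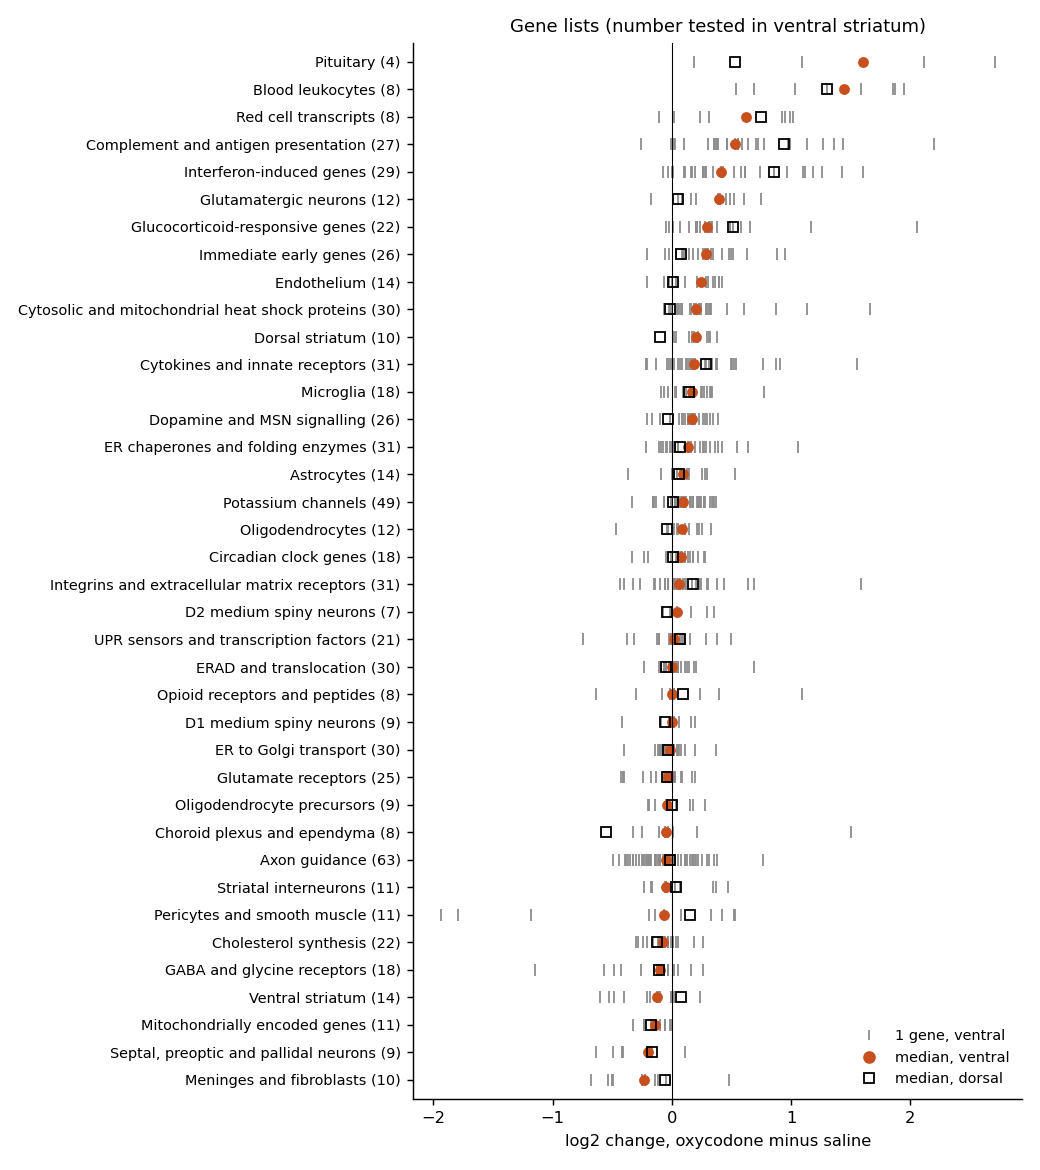
Log2 change (oxycodone minus saline, horizontal axis) of the tested members of 38 gene lists in ventral striatum (grey ticks), with the ventral median (orange circle) and the dorsal median (open square); the number tested in ventral striatum is in parentheses. The ER chaperone median is 0.13, and the highest ventral medians, 1.60 and 1.44, are those of pituitary and blood leukocyte markers, of which 4 of 11 and 8 of 15 passed the filter.

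Axon guidance genes direct growing axons, and the receptor lists hold the channels of fast synaptic transmission. Of 63 axon guidance genes, 3 had higher and 8 lower levels at an unadjusted p under 0.05, against 5.19% of all genes each way, with a median log2 change of -0.05. The count of lower members ran from 6 to 12 when single libraries were left out. Sema4g, a semaphorin, had 12.5 ± 1.3 against 17 ± 1.57 CPM (SD, n = 5 each) without overlap, a log2 change of -0.45 and a DESeq2 adjusted p of 0.0473. Plxnc1, a plexin that binds semaphorins, had -0.35 and Sema6a had -0.32. Among 18 GABA and glycine receptor genes 2 had higher and 4 lower levels, with a median of -0.10, against the same 5.19%. Gabrg1, the gamma1 subunit of the GABA-A receptor, had 42, 50.8, 36, 35.6 and 27.8 CPM against 55.2, 50.5, 50, 53.1 and 49.7 CPM, and Glra2, a glycine receptor subunit, had a log2 change of -0.48. Of 25 glutamate receptor genes 0 had higher and 2 lower levels. Grin3a, an NMDA receptor subunit, had adjusted p values of 0.0396 by limma-voom, which called it lower, and 0.123 by DESeq2.

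Markers of position within the striatum are given as a description, because markers chose the libraries. The median log2 change of the ventral striatum list was -0.12, with 2 of 14 positive, and a level of 5.43 ± 0.289 in oxycodone and 5.68 ± 0.127 in saline libraries (SD, n = 5 each). The dorsal striatum list had a median of 0.20, with 10 of 10 positive, and levels of 6.42 ± 0.149 and 6.23 ± 0.0848. Hap1, a ventral marker, had 332 ± 77.3 against 438 ± 27.3 CPM, and Zic1, a septal marker that overlaps Zic4, had 23.6 ± 7 against 36.7 ± 13.1 CPM. Several genes of this comparison also had unlike levels in the saline libraries of the 2 regions, each region scaled on its own. Dorsal and ventral saline means were 4.83 and 20.7 CPM for Neb, 1.64 and 9.67 for Frem3, and 104 and 221 for Wdr6. For Rgs4, higher after oxycodone, they were 531 and 163 CPM. Other genes differed from this: Spag6l, lower after oxycodone, had 13.2 and 13.1 CPM, and Wwtr1, higher after oxycodone, had 18 and 22.7. The part of dissection position in the results above was not tested.

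The same comparison over all 12 libraries tested 14116 genes and had 0 past the edgeR adjusted threshold (0% called), a lowest adjusted p of 0.237, and 1289 at an unadjusted p under 0.05 (9.13%), of which 697 were higher (4.94%) and 592 lower (4.19%). The common biological coefficient of variation, the typical relative spread between libraries of a group, was 12.7% over the 10 libraries and 19.9% over the 12. The 2 comparisons share 10 libraries, so their values are given side by side and not compared by a test. The log2 change of Xbp1 was 0.49 over the 10 libraries and 0.56 over the 12, that of Hspa5 was 0.64 and 0.74, and that of Neb was -0.74 and -0.81. It was 1.07 and 0.67 for Spi1, 2.20 and 1.38 for C3, and 1.50 and 6.47 for Ttr. The ER chaperone list had medians of 0.13 and 0.13 with 12 and 15 higher members at an unadjusted p under 0.05. The medians of dopamine and medium spiny neuron signalling were 0.16 and 0.52, and those of glutamatergic markers 0.39 and -0.71.

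The count of calls depended on single libraries. Without oxycodone replicate 1, edgeR called 87 of 14215 genes (0.612%), 67 higher and 20 lower, and 34 of the 87 were among the 51 called by both DESeq2 and limma-voom in the 5 against 5 comparison. Without oxycodone replicate 2 it called 22 of 14218 (0.155%), 11 higher and 11 lower, of which 12 were among the 51. There were 9 genes called in both of these fits, and the 8 fits that each left out another library called 0. At an unadjusted p under 0.05, 8.74% of genes were higher and 6.86% lower without replicate 1, and 6.71% were higher and 5.74% lower without replicate 2. Xbp1, Hspa5, Pdia4, Prl, Neb, Wdr6, Ngb and Ece2 were called in 2 of the 10 fits, and Spi1, Samsn1 and C3 in 1. The coefficient of variation was 10.7% without oxycodone replicate 1 and between 12.1% and 13.4% in the other 9 fits.

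The dorsal libraries, which are other libraries than those of the ventral comparison, were used to look up the 24 named genes of lowest p. Every dorsal title number also stands on a ventral library of the same treatment. The labels do not say whether these come from the same mice, so the lookup may not be independent. Title number 7, oxycodone replicate 4 in ventral and replicate 5 in dorsal striatum, had the highest interferon list level in both regions, 3.91 and 4.6. In each dorsal group 2 of the 5 libraries carry the same number in their titles, and the labels do not say whether they come from 1 animal. With these summed, leaving 4 samples a group, edgeR called 40 of 15053 genes (0.266%), 24 of them also called with 5 libraries a group. Of the 24 looked-up genes 18 then had the ventral sign and 0 were called, and 15 of 22 glucocorticoid-responsive genes were higher at an unadjusted p under 0.05, against 3.67% of all genes. The values that follow count each library as 1 sample. In dorsal striatum edgeR called 30 of 14595 genes (0.206%) and 823 had an unadjusted p under 0.05 (5.64%). All 24 genes were tested there, 18 had the same sign as in ventral striatum (10 of the 12 higher and 8 of the 12 lower genes), 9 had a dorsal unadjusted p under 0.05 and 0 were called. Of all dorsal genes 47.9% had a positive log2 change. Xbp1 had 81.2 ± 9.56 against 63.3 ± 12.9 CPM in dorsal striatum (SD, n = 5 each), a log2 change of 0.36. For Prl the dorsal log2 change was 2.09, for Lcn2 1.73, for Hnrnpdl -0.32 and for Spag6l -0.61, close to the ventral values of 2.12, 2.05, -0.32 and -0.63.

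The ER chaperone and heat shock lists had 0 members higher or lower at an unadjusted p under 0.05 in dorsal striatum, with medians of 0.06 and -0.01. The log2 change of Hspa5 was 0.24 there and that of Pdia4 was 0.09. At an unadjusted p under 0.05, 3.25% of all dorsal genes were higher. The 8 blood leukocyte markers that passed the ventral filter had a dorsal median of 1.30, given as a description. Red cell transcripts had a dorsal median of 0.75 with 4 of 8 higher, of which edgeR called 1. The part of blood content in the dorsal values was not tested either. The dorsal medians of other lists were 0.94 for complement and antigen presentation with 16 of 27 higher, 0.86 for interferon-induced genes with 17 of 29 higher and 0.51 for glucocorticoid-responsive genes with 9 of 22 higher.

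**Figure D5:**
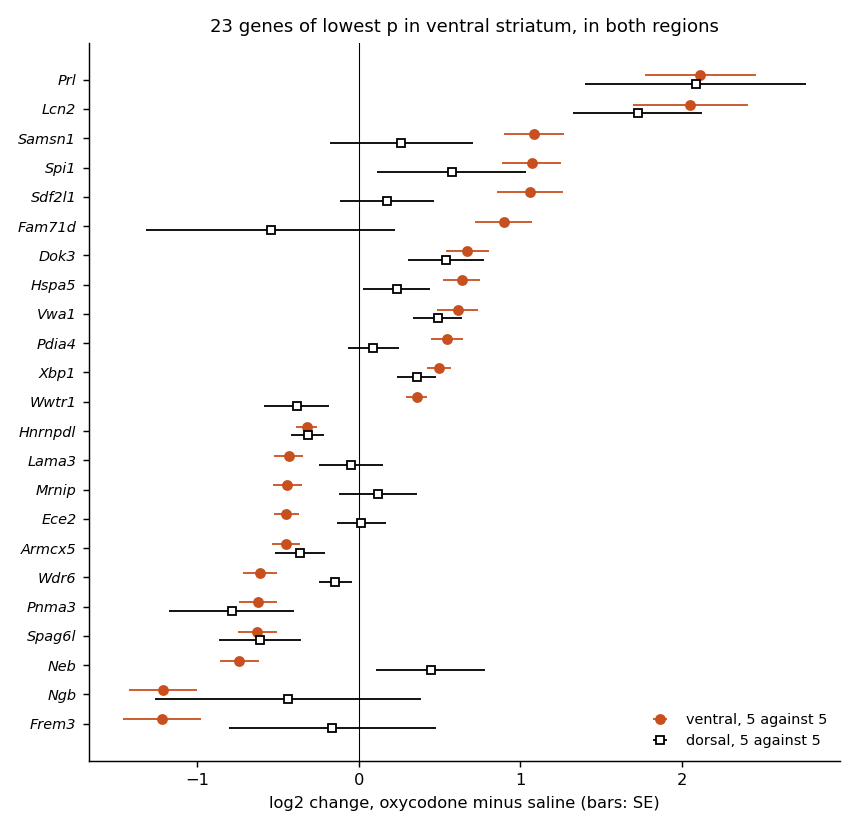
Log2 change (oxycodone minus saline, horizontal axis, with SE bars) of 23 of the 24 genes of lowest p in ventral striatum, in ventral (orange circles) and dorsal (open squares) libraries. Neb lies at -0.74 in ventral and at 0.45 in dorsal striatum, while Prl and Lcn2 lie above 1 in both.

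The difference of the oxycodone effect between the regions was tested in 1 fit of the 20 libraries, and 0 of 14891 genes passed the edgeR adjusted threshold (0% called), with a lowest adjusted p of 0.297. This fit took all libraries as independent, though title numbers recur across the regions. At an unadjusted p under 0.05 there were 611 genes (4.1%), and DESeq2 also called 0, with a lowest adjusted p of 0.0521. Among the 24 genes 8 had an unadjusted p under 0.05 for this difference, among them Neb, Wdr6, Ece2, Wwtr1, Pdia4, Sdf2l1 and Mrnip. The difference, ventral minus dorsal, was -1.19 with SE 0.32 for Neb. It was 0.76 with SE 0.19 for Wwtr1, a co-activator of the Hippo pathway, and 0.47 with SE 0.20 for Pdia4. For the ER chaperone list 3 of the members had an unadjusted p under 0.05 for the difference, and for dopamine and medium spiny neuron signalling 9 did. No gene passed the adjusted test of the difference, and the lists were not tested as sets.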

How the data were processed

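Total RNA libraries (stranded kit with ribosomal RNA removal, per the labels' protocols) were deposited by the authors as raw counts per Ensembl gene in 1 table of 23119 genes, 22205 with a symbol. CASAVA 1.8.2, STAR 2.3 and featureCounts are named in the submitters' processing notes, with builds mm10, GRCm38 and mm9 in no stated role; annotation, strand setting and treatment of multi-mapping reads are not given in the sources used here. Groups came from the source labels. The 10 libraries were fitted with edgeR 4.0.16 in R 4.3.3 (TMM scaling, filterByExpr, robust quasi-likelihood test, Benjamini-Hochberg adjustment over all genes tested, threshold 0.05), and CPM used the same scaling. DESeq2 1.42.0, limma 3.58.1 and sva 3.50.0 gave alternatives. The edgeR, DESeq2 and limma-voom fits were tested on simulated data with 200 genes changed by known folds. False calls made up 2.72% of the calls by edgeR, 8.38% by DESeq2 and 3.55% by limma-voom. Of the genes changed 1.5-fold edgeR found 65%, and of those changed 2-fold 78%. Counts were drawn independently for each gene, without a library that stood apart over many genes, as oxycodone replicate 1 did. These rates may therefore not hold for the calls in the real data. List levels used a prior count of 2.

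Named genes were the 24 of lowest p with a mean of at least 1 CPM, since none passed the adjusted threshold (gene models without a proper symbol passed over), up to 3 members of each list by lowest p, and a set of genes always given. Other members of the lists were named as examples, and 1 of the 24 genes is counted but not reported here. The 39 lists hold 774 genes, 759 matched. The members and lists were chosen with earlier results of these data known. Replicate libraries of a group differed by more than sampling noise. Promoters came from RefSeq and exon overlaps from GENCODE M21, matched by gene identifier.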

Additional observations from a re-analysis of the deposited data

Results flagged for a closer look

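In 24 of 280 groups of 5 libraries looked at (gene levels and list levels), 1 library lay far from the other 4 by Dixon's criterion, which chance alone meets in a small share of groups, about 1 in 20. None of these values has a tested explanation. Each value is given with that of the nearest other library of its group.

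Oxycodone replicate 4 was high for 6 immune genes. C3 stood at 19.1 CPM against 7.45, S100a8 at 8.63 against 2.96, Ptprc at 38.4 against 17.8 and Cybb at 12.3 against 4.08. Itgb2, the common chain of leukocyte integrins, stood at 25.2 against 14.2, and Lyz2, the lysozyme gene of phagocytes, at 27.4 against 9.08.

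Oxycodone replicate 1 was high for Hsp90b1, 843 against 590 CPM, for Ttr, 30.2 against 8.26, and for Zic1, 35.8 against 22.8, and it was low for Ern1, 13.8 against 20.2. Oxycodone replicate 2 had a low level of glutamatergic markers, 2.85 against 3.95, and oxycodone replicate 5 a high level of axon guidance genes, 5.35 against 5.22.

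Saline replicate 1 was high for Erlec1, 67.1 against 53.5 CPM, and for Serpinh1, 21.6 against 14.1, and low for Grin3a, 54.2 against 71.3. Its list levels were high for meninges and fibroblasts, 4.66 against 2.81, for pericytes and smooth muscle, 5.37 against 4.43, and for integrins, 4.49 against 4.14, and low for potassium channels, 5.35 against 5.52. Saline replicate 2 was high for Sdf2l1, 5.12 against 4.10 CPM, and for dorsal striatum markers, 6.38 against 6.21. Saline replicate 4 was low for opioid genes, 4.53 against 4.64, and for oligodendrocyte precursor markers, 3.83 against 3.97. Saline replicate 5 was high for Sema6a, 72.4 against 57.4 CPM.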

How the results depend on the processing

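The count of genes past the adjusted threshold, 0 by edgeR, was 109 by DESeq2, 68 by limma-voom and 20 with 1 surrogate variable, and ran from 0 to 87 when single libraries were left out (87 without oxycodone replicate 1, 22 without oxycodone replicate 2). It was 0 with the other scalings and filters, without robust estimation, with the newer quasi-likelihood method (chosen after seeing the data), at an adjusted p of 0.1, with lane as a covariate, in lane 1 only, with replicate 6 of either or both groups, and with all 4 groups in 1 fit. Summing dorsal libraries with the same title number, also chosen after seeing the data, left the count of genes that differed between the regions at 0. The dorsal lookup of called genes gave no value because 0 genes were called. No paired analysis was possible because every ventral library has a title number of its own and replicate numbers only name libraries.

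With all 12 libraries the list medians were 0.25 for opioid genes (0.00 over the 10), 0.52 for dopamine and medium spiny neuron signalling (0.16), -0.12 for axon guidance (-0.05), 0.041 for mitochondrially encoded genes (-0.14), 0.29 for D1 (0.00) and 0.40 for D2 neurons (0.05), 0.61 for dorsal striatum (0.20), -0.71 for glutamatergic neurons (0.39), -0.49 for septal neurons (-0.20), 0.43 for oligodendrocytes (0.08), 0.21 for their precursors (-0.04), 0.79 for blood leukocytes (1.44), 0.073 for endothelium (0.25) and 0.47 for choroid plexus (-0.05). In lane 1 only they were -0.034 for UPR sensors (0.01) and 1.87 for pituitary markers (1.60). Leaving out single libraries gave -0.54 to -0.12 for septal neurons, -0.63 to 0.65 for meninges (0.65 without saline replicate 1) and 1.27 to 1.79 for pituitary markers. With a prior count of 0.5, saline replicate 6 had D1 markers at 2.36 (2.62) and choroid plexus markers at -0.27 (0.24).

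Of 102 genes examined, 96 kept their direction in every setting. Oprm1 turned to 0.0059 with 12 libraries and 0.13 with saline replicate 6 added. Penk turned to 0.028 by limma-voom, 0.39 with 12 libraries, 0.15 and 0.23 with oxycodone or saline replicate 6 added, and 0.016 with the surrogate variable, and ran from -0.073 to 0.076 without single libraries. Pdyn turned to -0.040 in lane 1 and -0.0815 with oxycodone replicate 6 added, and ran from -0.037 to 0.078. Slc17a7 turned to -0.57 with 12 libraries and -0.41 with saline replicate 6 added. Ern1 turned to -0.034 in lane 1, -0.084 with 12 libraries, -0.0089 and -0.061 with oxycodone or saline replicate 6 added, and -0.096 with the surrogate variable, and ran from -0.032 to 0.13. Eif2ak3 turned to -0.0277 with saline replicate 6 added and -0.011 with the surrogate variable, and ran from -0.010 to 0.064. The cause was not tested for any of these. Depth limits genes near the floor of 0.3 to 0.357 CPM, such as Prl in saline libraries.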

Other observations

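Potassium channel genes had a median log2 change of 0.09 in ventral striatum, with 37 of 49 positive, 8 higher and 2 lower at an unadjusted p under 0.05, against 5.19% of all genes each way, and 13 higher and 4 lower without oxycodone replicate 1, where 8.74% of all genes were higher and 6.86% lower. Circadian clock genes had a median of 0.08, with 13 of 18 positive, 2 higher and 0 lower, and 7 higher without oxycodone replicate 1, against the same 8.74%. Neither list had a gene called by edgeR, DESeq2 or limma-voom.

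Cholesterol synthesis genes had a median of -0.07, with 6 of 22 positive, 0 higher and 2 lower, and a dorsal median of -0.12. At an unadjusted p under 0.05, 5.19% of all genes passed each way, the share beside each ventral count of this paragraph. All 11 tested mitochondrially encoded genes had a negative log2 change, from -0.33 to -0.01 with a median of -0.14, and 1 was lower at an unadjusted p under 0.05. The dorsal median of these 11 genes was -0.17, and with all 12 ventral libraries their median was 0.04. Astrocyte markers had a median of 0.09 with 1 of 14 higher, oligodendrocyte markers 0.08 with 0 higher and 1 lower of 12, and striatal interneuron markers -0.05 with 0 of 11 past an unadjusted p of 0.05 either way.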
